A study of Macaca mulatta with 24 samples.

Results

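Heat shock proteins and chaperones were followed by mRNA level in the jejunum of Rhesus macaques after total-body irradiation (TBI). The members were all array probes whose gene symbol in the deposited jejunum table starts with HSP followed by a letter from A to H or a digit, with DNAJA, DNAJB or DNAJC, or with CCT followed by a digit from 2 to 8. They came to 111 of 43603 probes, and to 64 of 16094 gene symbols. By family there were 19 probes of HSP70 and HSP110 (11 genes), 11 of HSP90 (3 genes), 5 of HSP60 and HSP10 (2 genes), 6 of the small heat shock proteins (6 genes), 3 of DNAJA (3 genes), 10 of DNAJB (7 genes), 37 of DNAJC (24 genes) and 14 of the CCT ring (7 genes). The pattern also took in 6 probes of HSPG2, which encodes perlecan, a basement membrane proteoglycan that is no chaperone. HSPB11, likewise, is a subunit of the intraflagellar transport complex despite its symbol. HSPA1A, HSPA1B, HSPA6, DNAJB1, DNAJB11 and CCT3 were not analysed here.

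The animals were young adult males, and each array held the RNA of 1 animal, taken from a full-thickness piece of jejunum without pooling. The control group was sham-irradiated (0 Gy) and labelled as day 4, with 4 animals. The irradiated groups received a single cobalt-60 gamma dose of 6.7 Gy or 7.4 Gy and were sampled on day 4 (4 animals per dose), day 7 (4 per dose) or day 12 (2 per dose). There were therefore 7 groups and 24 arrays, and the same 4 controls served in all 6 comparisons with control, the day 7 and day 12 ones included. A full-thickness piece holds epithelium, lamina propria, muscle layers and enteric nerves. In such bulk tissue fewer cells of a type and less RNA per cell cannot be told apart.

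Levels are given on the log2 scale with each array's own 75th percentile set to 0, and 1 unit is a 2-fold difference. Tested probes, 28171 in number, had to exceed their background clearly (the scanner's flag) throughout 1 or more groups. Of the members, 97 probes (87.4%) of 58 genes were tested, against 64.6% of all probes. On all 24 arrays 61.3% of member probes and 36.1% of all probes were well above background. The 14 untested member probes (1 each of CCT5, CCT6B, DNAJC11, DNAJC14, DNAJC27, HSPA12B and HSPB3, 2 each of DNAJC12 and HSPA12A, and 3 of HSPG2) were above background on some arrays only. Between 17159 and 38226 probes were well above background on an array, with the low counts on slides 4 and 5 of the 6 slides. All 4 controls sat at position 1 of their slide, which they shared only with 2 of the 6.7 Gy day 4 arrays, so that position and group largely coincide.

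Chaperones help other proteins to fold, keep partly unfolded proteins from clumping and hand them on for refolding or breakdown. HSP70 proteins bind short hydrophobic stretches and are driven by J-domain proteins (DNAJA, DNAJB, DNAJC), HSP90 finishes signalling proteins, HSP60 with its lid HSP10 folds proteins inside mitochondria, the CCT ring folds actin and tubulin, and small heat shock proteins hold unfolded chains without using ATP. Many of these genes are induced by heat and proteotoxic stress through the transcription factor HSF1, while those of the endoplasmic reticulum answer to the unfolded protein response.

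Most chaperone mRNAs stayed close to their control level after TBI. A change is said to have passed where the adjusted p of the limma test was under 0.05, and to be called where it was also at least 2-fold. On day 4 after 6.7 Gy, 1 of 97 member probes was called beside 1.98% of all tested probes, and on day 4 after 7.4 Gy 2 of 97 were called beside 2.60%. On day 7 none of the 97 was called after either dose, beside 0.0639% of all tested probes after 6.7 Gy and 0.288% after 7.4 Gy. On day 12, with 2 animals per dose, none was called beside 0.00710% and 0.00355%. Without adjustment, limma gave p under 0.05 for 16, 18, 7, 14, 2 and 9 member probes in the comparisons taken in the order 6.7 and 7.4 Gy on days 4, 7 and 12, beside 21.2%, 24.5%, 10.5%, 16.4%, 7.00% and 8.42% of all tested probes. The members' shares of 16.5%, 18.6%, 7.22%, 14.4% and 2.06% in the first 5 of these lay below that background, and the share of 9.28% in the last lay near it. At any size of change, 1 and 3 of the 97 passed on day 4 (beside 3.61% and 5.38%) and none later.

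The sizes of the changes were also small. The 95% confidence interval of the change lay inside 2-fold in both directions for 82, 82, 86, 82, 74 and 68 of the 97 member probes in the same order, while 70.0%, 67.3%, 79.5%, 69.3%, 70.6% and 63.1% of all tested probes had such an interval. The standard deviation of the members' log2 changes was 0.38 on day 4 after 6.7 Gy and 0.42 after 7.4 Gy, against 0.50 and 0.53 over all tested probes. It was 0.27 and 0.33 on day 7, against 0.38 and 0.47. The median member change lay between -0.04 and 0.09 in all 6 comparisons, and that of all tested probes between -0.08 and 0.03.

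Members whose arrays did not overlap the controls were counted too. On day 4, 6 of 97 member probes lay above all controls after 6.7 Gy and 5 after 7.4 Gy (6.68% and 7.28% of all tested probes did), and 3 and 4 lay below (7.66% and 10.1%). On day 7, 2 and 5 lay above (3.99% and 5.87%) and 3 and 10 below (3.16% and 5.38%). The 10 on day 7 after 7.4 Gy were 10.3% of the members, and came from DNAJA1, DNAJB2, DNAJB6, DNAJB7, DNAJB9, DNAJC3, DNAJC5, HSP90AB1, HSPA5 and HSPH1, with differences of -0.33 to -1.09. For DNAJB6, HSP90AB1 and HSPA5 it was a dimmer probe of the gene, and the gene's brightest probe overlapped the controls. Of the 3 HSP90AB1 probes, 2 were higher than control in that group and 1 was lower. On day 12, where 2 animals against 4 separate easily, 15 and 5 lay above (10.1% and 8.51%) and 5 and 15 below (7.43% and 9.50%).

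**Figure D1:**
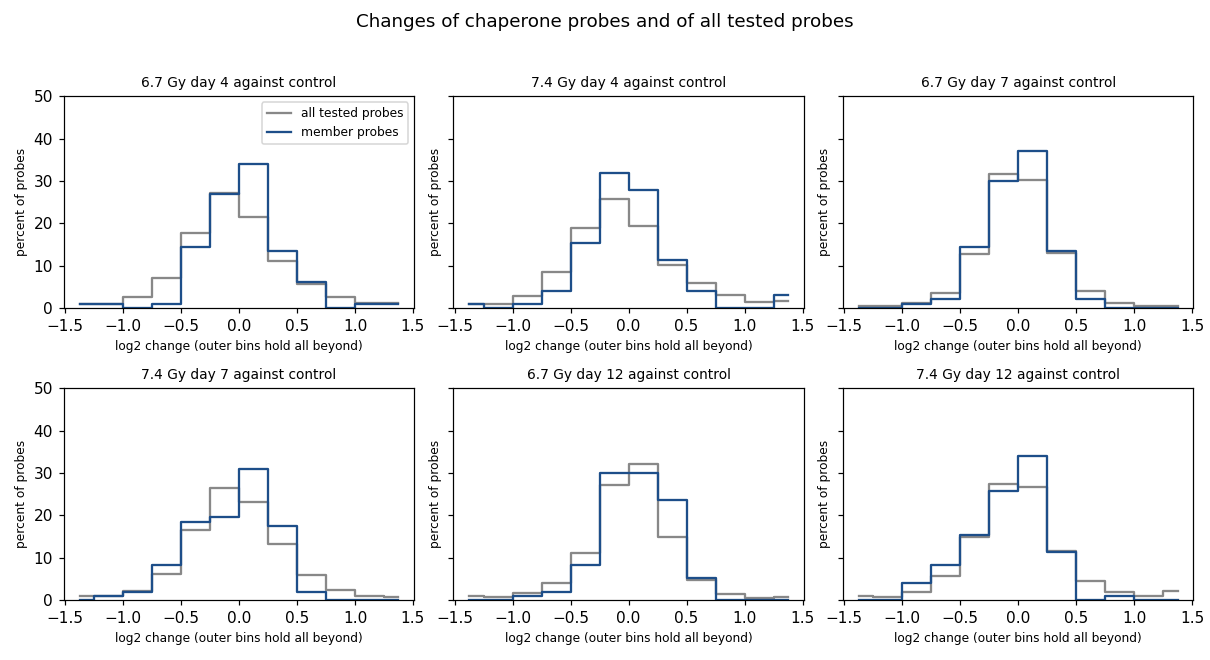
Distribution of log2 changes against control (x axis) as the percent of probes per bin of 0.25 (y axis), for the 97 member probes and for all 28171 tested probes, with 1 panel per irradiated group. In each panel the members gather around 0, with standard deviations from 0.27 to 0.42 against 0.38 to 0.53 for all probes.

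**Figure D2:**
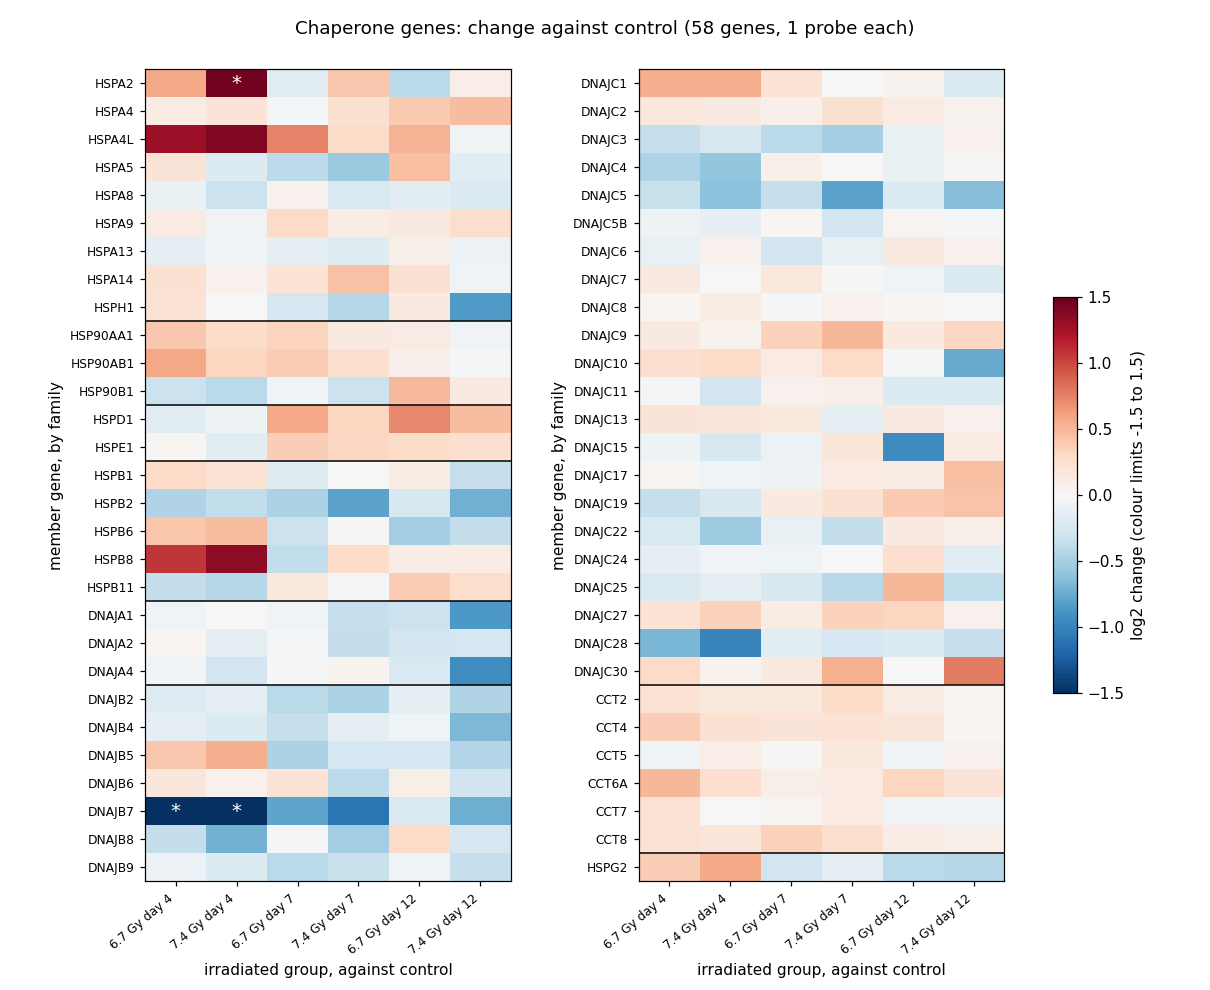
Heat map of the log2 change against control of the 58 genes with a tested probe (rows, by family, 1 probe per gene) in the 6 irradiated groups (columns), with the colour giving the change and a white star each called change. Stars mark DNAJB7 on day 4 after both doses and HSPA2 on day 4 after 7.4 Gy.

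Against control, HSPA2 was the member called as higher and DNAJB7 the member called as lower. HSPA2, an HSP70 best known from the testis and also made in other tissues, read -0.93, -0.74, -0.97 and -0.41 in the 4 controls. On day 4 after 7.4 Gy it read 1.04, 0.80, 0.50 and 0.41, and after 6.7 Gy 0.00, -0.38, 0.05 and -0.44. All 4 arrays of the higher dose lay above every control, whereas 1 array of the lower dose overlapped the controls. The rise after 7.4 Gy was 1.45 on the log2 scale (SE 0.19, 2.72-fold, adjusted p = 0.0101 by limma), and the difference after 6.7 Gy was 0.57 (adjusted p = 0.126). The difference between doses on day 4 was not tested by itself. On day 7 the level varied widely between animals, with -1.37, -1.40, -0.81 and -0.09 after 6.7 Gy and 0.55, -2.05, -1.12 and 1.16 after 7.4 Gy. On day 12 it was -1.68 and -0.67 after 6.7 Gy and -0.83 and -0.49 after 7.4 Gy, and none of these groups differed from control past the threshold. Within the 2 slides that held a control and a 7.4 Gy day 4 array the rise was 1.21 and 2.00. The call was lost with the slide as a fixed block (1.58), with the position on the slide (1.45), the scan day (1.65) or the replicate number (1.45) as a block, without the filter on dim probes (1.45), in a fit on all 24 arrays (1.45) and without the arrays of slides 4 and 5 (1.60).

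DNAJB7, a J-domain protein of the B class, was the only member called after both doses on day 4. The controls read -2.22, -1.86, -2.06 and -2.07. On day 4 the arrays read -4.14, -3.05, -4.59 and -3.51 after 6.7 Gy and -3.45, -3.48, -4.03 and -3.70 after 7.4 Gy. Every irradiated day 4 array lay below every control. The level fell by 1.77 after 6.7 Gy (SE 0.31, adjusted p = 0.0224) and by 1.61 after 7.4 Gy (SE 0.17, adjusted p = 0.00394). On day 7 it read -2.25, -2.38, -3.11 and -3.62 after 6.7 Gy and -3.58, -2.73, -3.05 and -3.23 after 7.4 Gy, again below all controls, with differences of -0.79 (adjusted p = 0.369) and -1.09 (adjusted p = 0.0587) that did not pass. On day 12 the 2 arrays per dose read -1.80 and -2.75, and -3.18 and -2.39. The level on day 12 was higher than on day 4 over both doses by 1.22 (SE 0.28, adjusted p = 0.00866), and higher within each of the 4 slides that held both days, by 0.74 to 1.65. That call was lost with normexp (0.89) and without 6.7 Gy day 12 replicate 1 (0.98).

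The DNAJB7 probe was dim. The scanner flagged it as well above background in 4 of 4 controls, in 3 of 4 animals on day 4 after each dose, in 4 of 4 and 3 of 4 on day 7, and in 2 of 2 and 1 of 2 on day 12. A common floor at -1.85, the highest detection limit of any array, lay above every control and day 4 value of DNAJB7, so that raising all values to it made them equal and tested nothing. The call after 6.7 Gy was lost without control replicate 1 (-1.83), control replicate 2 (-1.71) or control replicate 3 (-1.77). With the change still at -1.77 it was also lost by the methods' t-test after adjustment, without the filter on dim probes and with the replicate number as a block. The call after 7.4 Gy was lost with normexp (-0.90) and quantile normalization (-2.07), and the calls after both doses were lost with position as a block (-1.54 and -1.15) and without slides 4 and 5 (-1.67 and -1.53). Within slides the day 4 difference was -2.37 and -1.65 after 6.7 Gy and -1.41 and -1.39 after 7.4 Gy.

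**Figure D3:**
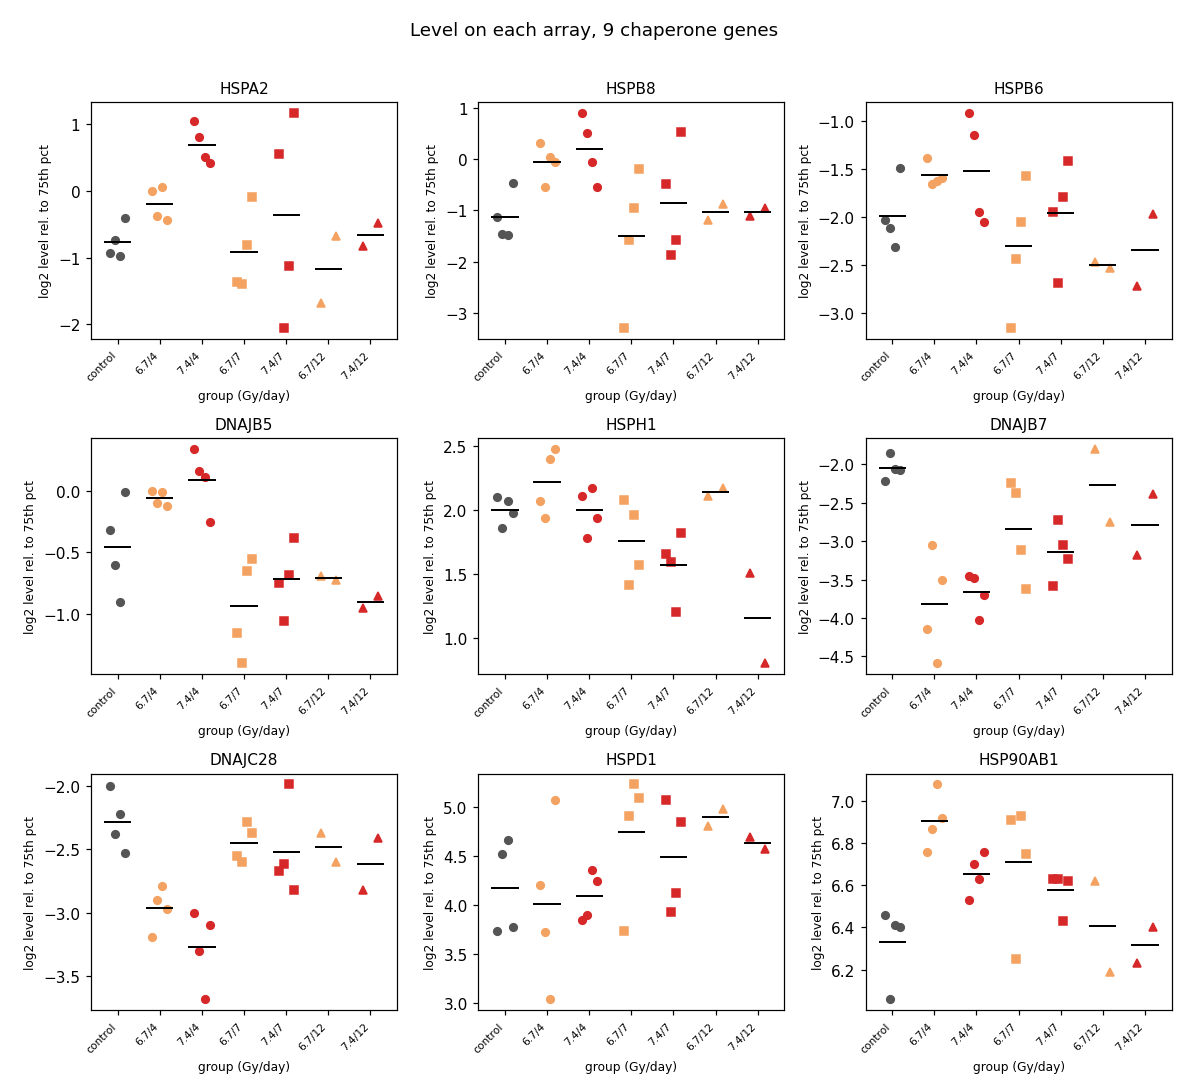
Levels of 9 genes in each array (points, log2 scale with the array's 75th percentile at 0, y axis) in the 7 groups (x axis), with bars at the group means. HSPA2 lies above all controls on day 4 after 7.4 Gy, DNAJB7 below all controls on day 4 and day 7, and HSPB8, HSPB6 and DNAJB5 have higher means on day 4 than on day 7.

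Among the small heat shock proteins, HSPB8 differed between days. HSPB8 (HSP22) works with BAG3 in clearing misfolded proteins and is abundant in muscle. Its controls read -1.13, -1.46, -1.49 and -0.47. Day 4 read 0.30, -0.54, 0.03 and -0.06 after 6.7 Gy and 0.89, 0.51, -0.07 and -0.54 after 7.4 Gy, so that 1 array per dose overlapped the controls. The day 4 differences from control, 1.07 (SE 0.27, adjusted p = 0.0635) and 1.34 (SE 0.34, adjusted p = 0.0575), were over 2-fold and did not pass. On day 7 it read -3.29, -1.58, -0.95 and -0.20 after 6.7 Gy and -0.48, -1.88, -1.58 and 0.52 after 7.4 Gy, and on day 12 -1.20 and -0.87 after 6.7 Gy and -1.11 and -0.95 after 7.4 Gy. From day 4 to day 7 HSPB8 fell by 1.25 over both doses (SE 0.38, 2.37-fold, adjusted p = 0.0281), the single member probe of 97 called in that comparison beside 1.88% of all tested probes. It was lower within each of the 6 slides, by 0.47 to 2.47. That call rested on single animals, since it was lost without 7.4 Gy day 4 replicate 1 (-1.13), 6.7 Gy day 7 replicate 1 (-0.95), 7.4 Gy day 7 replicate 2 (-1.08) or 7.4 Gy day 7 replicate 3 (-1.12). It was also lost with normexp background correction (-0.96), without the filter on dim probes (-1.25), in a fit on the compared groups alone (-1.25), on the arrays of the first scan day alone (-1.36) and without slides 4 and 5 (-1.45).

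HSPB6 (HSP20), a small heat shock protein that is abundant in smooth muscle, had group means of -1.98 in controls, -1.56 and -1.52 on day 4, -2.30 and -1.96 on day 7 and -2.50 and -2.35 on day 12, in each pair 6.7 Gy first. No comparison with control passed. Day 12 lay below day 4 by 0.88 (SE 0.28, adjusted p = 0.0401), under the 2-fold limit. HSPB1 (HSP27), the best known of the family and a binder of actin filaments, moved between a mean of 4.24 (day 12 after 7.4 Gy) and 4.87 (day 4 after 6.7 Gy) around 4.58 in controls, and no comparison passed. HSPB11, the transport subunit, was the family's gene with the smallest F test p (adjusted p = 0.093). It was higher on day 7 than on day 4 by 0.46 (SE 0.14, adjusted p = 0.0318) and on day 12 by 0.72 (SE 0.17, adjusted p = 0.0109), both under 2-fold.

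In the HSP70 and HSP110 family the major constitutive members moved little. HSPA8, the abundant cytosolic HSC70, had control values of 6.47, 6.12, 6.54 and 5.97 and changes against control from -0.32 to 0.06. HSPA9, the mitochondrial HSP70, changed by -0.05 to 0.29. HSPA5 (BiP), the HSP70 of the endoplasmic reticulum, had differences of 0.19 and -0.20 on day 4, -0.39 and -0.56 on day 7 and 0.45 and -0.16 on day 12, and none passed (adjusted p = 0.186 for the -0.56). Its arrays on day 7 after 7.4 Gy read 2.71, 3.17, 2.51 and 2.62 beside 3.36, 3.11, 3.31 and 3.46 in controls, which overlap. From day 4 to day 7 HSPA5 differed by -0.47 on this probe (adjusted p = 0.0785), -0.42 on another and -0.49 (adjusted p = 0.0467) on its remaining probe.

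HSPH1 (HSP105), the nucleotide exchange factor of cytosolic HSP70, was 1 of 6 genes with a difference somewhere among the 7 groups (F test adjusted p = 0.0282, 7 of 97 member probes or 7.22% beside 9.96% of all tested probes). Without slides 4 and 5 that test passed for none of the members, HSPH1 included, beside 0.667% of all tested probes, and without the filter on dim probes for 3, beside 3.37%. Controls read 2.10, 1.86, 2.07 and 1.98. Day 4 read 2.07, 1.94, 2.40 and 2.48 after 6.7 Gy and 2.11, 1.78, 2.17 and 1.94 after 7.4 Gy, and day 7 read 2.08, 1.41, 1.96 and 1.57 after 6.7 Gy and 1.66, 1.59, 1.20 and 1.82 after 7.4 Gy. All 4 of the latter lay below every control. On day 12 both animals given 6.7 Gy, at 2.11 and 2.17, lay above those given 7.4 Gy, at 1.51 and 0.80, a difference from control of -0.85 in the latter (SE 0.24, adjusted p = 0.496). The level fell by 0.45 from day 4 to day 7 (SE 0.13, adjusted p = 0.023), and by 0.54 on its second probe (adjusted p = 0.0206), and on the first probe it was lower within each of the 6 slides.

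HSPA4L, a close relative of HSPH1 known from the testis, was dim and was chosen after its values were seen. Controls read -4.07, -4.43, -3.72 and -4.59, day 4 after 6.7 Gy -2.69, -2.84, -3.76 and -2.38, and day 4 after 7.4 Gy -2.47, -2.93, -1.79 and -4.04. Its differences on day 4 were 1.28 (adjusted p = 0.0598) and 1.39 (adjusted p = 0.0947). From day 4 to day 12 it fell by 1.11 (SE 0.36, adjusted p = 0.0452), 1 of 2 member probes of 97 called in that comparison beside 3.43% of all tested probes. DNAJB7 was the other. The HSPA4L probe was well above background on 1 of 2 day 12 arrays after 7.4 Gy, and the common floor at -1.85 lay above all its values but that of 7.4 Gy day 4 replicate 3, so that it tested nothing here either. The call held in 7 of the 20 fits that left out 1 array, with changes from -1.32 to -0.94 over these fits. It was lost without replicate 1, 2 or 4 of 6.7 Gy day 4, replicate 1, 2 or 3 of 7.4 Gy day 4, replicate 2 or 4 of 6.7 Gy day 7, replicate 2 of 7.4 Gy day 7 or any of the 4 day 12 arrays. It was also lost with normexp (-0.58), without the filter on dim probes (-1.11), in a fit on the compared groups alone (-1.11), with the scan day (-1.11) or the replicate number (-1.06) as a block and without slides 4 and 5 (-0.79).

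HSP90AB1, the constitutive cytosolic HSP90, read 6.46, 6.06, 6.41 and 6.40 in controls. On day 4 it read 6.76, 6.87, 7.08 and 6.92 after 6.7 Gy and 6.53, 6.70, 6.63 and 6.76 after 7.4 Gy. All 8 day 4 arrays lay above every control, with differences of 0.58 (SE 0.15, adjusted p = 0.0661) and 0.32 that did not pass. From day 4 to day 12 it fell by 0.42 (SE 0.13, adjusted p = 0.0353). Another of its 3 probes, however, gave differences from control of -0.22 on day 4 and -0.61 on day 7 after 7.4 Gy. HSP90AA1, the stress-inducible form, had differences of 0.41 and 0.28 on day 4 and of -0.05 to 0.33 later, and none passed. Its controls read 4.53, 4.17, 4.03 and 3.00, and the low value of control replicate 4 adds to each of these differences. HSP90B1 (GRP94), the HSP90 of the endoplasmic reticulum, had differences of -0.32 and -0.41 on day 4 and of 0.49 and 0.14 on day 12. From day 4 to day 12 it rose by 0.68 (SE 0.18, adjusted p = 0.0162), and by 0.59 on a second probe (adjusted p = 0.0204).

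The mitochondrial HSP60, HSPD1, and its lid HSP10, HSPE1, were higher on day 7 than on day 4 on part of their probes. HSPD1 varied between animals within groups, with controls at 3.73, 4.52, 4.66 and 3.78, day 4 at 4.20, 3.72, 3.04 and 5.07 after 6.7 Gy and at 3.85, 3.90, 4.36 and 4.24 after 7.4 Gy, and day 7 at 3.73, 4.91, 5.23 and 5.09 after 6.7 Gy and at 5.07, 3.93, 4.12 and 4.85 after 7.4 Gy. These ranges overlap. The difference of day 7 from day 4 was 0.57 on this probe (SE 0.27, adjusted p = 0.153), while the second probe rose by 0.40 (SE 0.12, adjusted p = 0.0312). HSPE1 differed by 0.41 on its brightest probe (SE 0.14, adjusted p = 0.0501), rose by 0.54 on another (adjusted p = 0.0321) and differed by 0.49 on the remaining one (adjusted p = 0.307). All 6 mitochondrial members in the list for that compartment had a higher mean on day 7 than on day 4, with a median difference of 0.32 beside 0.06 over all tested probes, and of these 6 representative probes none passed. Cell cycle markers (16 tested of 22, all well above background on some arrays) moved in the same direction, with a median difference of 0.59 between day 7 and day 4, 14 of 16 higher and CENPF called. Their mean level per array ran from 0.11 to 0.41 in controls, 0.35 to 1.30 and 0.14 to 1.17 on day 4, 0.53 to 1.47 and 0.87 to 1.80 on day 7, and 0.24 to 0.84 and 0.83 to 1.27 on day 12. Their part in the HSPD1 and HSPE1 differences was not tested.

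Among the J-domain proteins, DNAJB5 lay lower on day 7 and day 12 than on day 4 on both of its probes. It was named after its values were seen. On day 4 it read 0.00, -0.10, -0.01 and -0.12 after 6.7 Gy and 0.34, 0.16, 0.11 and -0.25 after 7.4 Gy. On day 7 it read -1.15, -1.40, -0.65 and -0.55 after 6.7 Gy and -0.75, -1.06, -0.68 and -0.38 after 7.4 Gy, and on day 12 -0.69 and -0.72 after 6.7 Gy and -0.95 and -0.85 after 7.4 Gy. Every day 7 and day 12 array lay below every day 4 array. The level fell by 0.84 from day 4 to day 7 (SE 0.14, adjusted p = 0.000581) and by 0.82 from day 4 to day 12 (SE 0.17, adjusted p = 0.00501), or 1.80-fold and 1.77-fold, under the 2-fold limit. The second DNAJB5 probe fell by 0.74 (adjusted p = 0.00401) and by 0.71 (adjusted p = 0.0219). Within each of the 6 slides day 7 was below day 4, by 0.70 to 1.00. The controls, at -0.32, -0.60, -0.90 and -0.01, lay between and overlapped both, and no comparison with control passed.

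DNAJC28, a J-domain protein of the C class, was lower on day 4. Controls read -2.00, -2.38, -2.22 and -2.53, and day 4 read -3.19, -2.90, -2.79 and -2.97 after 6.7 Gy and -3.00, -3.30, -3.68 and -3.10 after 7.4 Gy. All 8 lay below every control. The probe was dim and was well above background on 20 of 24 arrays. The level fell by 0.99 after 7.4 Gy (SE 0.19, 1.99-fold, adjusted p = 0.0253), short of the 2-fold limit, and differed by -0.69 after 6.7 Gy (adjusted p = 0.0539). Its second probe gave -0.08 after 7.4 Gy and -1.06 after 6.7 Gy, the opposite order. From day 4 to day 7 the first probe rose by 0.63 (adjusted p = 0.00273) and the second by 0.84 (adjusted p = 0.0216). DNAJC4 differed from control by -0.46 (adjusted p = 0.108) and -0.58 (adjusted p = 0.0945) on day 4, which did not pass, and 1 array after 7.4 Gy, at -0.06, overlapped the controls (-0.16 to 0.23). It rose by 0.56 from day 4 to day 7 (SE 0.11, adjusted p = 0.00219) and by 0.48 to day 12 (SE 0.14, adjusted p = 0.0256).

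The 3 DNAJA genes with a tested probe (DNAJA1, DNAJA2 and DNAJA4), partners of cytosolic HSP70, had no change that passed against control, between days or between doses. DNAJA1, a major partner of HSC70, read 2.54, 2.61, 2.63 and 2.51 in controls and 1.72 and 1.71 on day 12 after 7.4 Gy, a difference of -0.86 in 2 animals (SE 0.16, adjusted p = 0.321). DNAJA4 differed by -0.93 in the same group (adjusted p = 0.43). Of the partners in the endoplasmic reticulum, DNAJC3 (p58IPK) differed from control by -0.50 to 0.07 and DNAJB9 (ERdj4) by -0.40 to -0.07, and neither passed. DNAJC1 (ERdj1) differed by 0.55 on day 4 after both doses and fell from there by 0.44 to day 7 (adjusted p = 0.0261) and by 0.63 to day 12 (adjusted p = 0.0152). DNAJC10 (ERdj5), a disulfide reductase, fell by 0.66 from day 4 to day 12 (SE 0.20, adjusted p = 0.0381). Its day 12 arrays read -2.56 and -2.33 after 6.7 Gy and -3.81 and -2.54 after 7.4 Gy. Only the -3.81 lay outside the day 4 range of -2.57 to -1.80, and the change without that array was not examined. The probe was well above background on 21 of 24 arrays. DNAJC1 and DNAJC10 were chosen after their values were seen.

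The subunits of the CCT ring had no change that passed. The 6 genes with a tested probe (CCT2, CCT4, CCT5, CCT6A, CCT7 and CCT8) had a median change of 0.22 and 0.17 on day 4, 0.12 and 0.19 on day 7 and 0.11 and 0.05 on day 12, in each pair 6.7 Gy first. On the probes that stand for these genes single changes ran from -0.05 to 0.50, with CCT6A on day 4 after 6.7 Gy at the top. Over all 12 tested CCT probes they ran from -0.36 (7.4 Gy day 7) to 0.58 (6.7 Gy day 12), both on the second probe of CCT4. The smallest F test p among the family's probes, on a second probe of CCT7, was 0.0687 before and 0.217 after adjustment.

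HSPG2, taken in by its symbol alone, differed between days on its brightest probe. It fell by 0.69 from day 4 to day 7 (SE 0.16, adjusted p = 0.00747) and by 0.89 from day 4 to day 12 (SE 0.20, adjusted p = 0.00704). Its other 2 tested probes gave 0.02 and 0.18, and -0.17 and 0.28, and did not pass.

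The time comparisons as a whole lay near the background. At adjusted p under 0.05 with any size of change, 15 of 97 member probes (15.5%) differed between day 7 and day 4, 7 of them higher and 8 lower, beside 16.9% of all tested probes (9.22% higher and 7.69% lower). Between day 12 and day 4 it was again 15 (15.5%) beside 13.4%. Without adjustment 28 member probes (28.9%) differed between day 7 and day 4 at p under 0.05 beside 31.2%, and 29 (29.9%) between day 12 and day 4 beside 29.4%. The 95% interval lay inside 2-fold for 83 probes beside 82.1% in the former comparison and for 79 probes beside 72.7% in the latter. Between doses, averaged over the 3 days, no member and no other probe of the array passed (0 of 28171). Without adjustment 11 member probes (11.3%) had p under 0.05 by limma beside 6.11% of all tested probes, and all 11 were lower after 7.4 Gy. Over all tested probes 3.92% were lower and 2.18% higher at that p, so that the background leaned the same way. They were probes of 9 genes, among them both probes of HSPH1 (-0.46 and -0.34) and 2 of HSPA5 (-0.39 and -0.37). For 95 of the 97 probes the 95% interval of the dose difference lay inside 2-fold, beside 92.7% of all tested probes.

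A list of heat-inducible members had 11 genes with a tested probe (HSPA8, HSPA4L, HSPH1, HSP90AA1, HSP90AB1, HSPB1, HSPB8, HSPD1, HSPE1, DNAJA1 and DNAJB4). HSPA1A, HSPA1B, HSPA6 and DNAJB1 were also on that list and were not analysed here. It took in HSPA8 and HSP90AB1, which are named above as constitutive. On day 4 the median changes from control were 0.22 and 0.00. They were 0.06 and 0.14 on day 7 and 0.11 and -0.05 on day 12, and none of the 11 genes passed against control. Their median difference was -0.14 between day 7 and day 4, with 8 of 11 lower and HSPB8 called, and -0.37 between day 12 and day 4, with 8 of 11 lower and HSPA4L called, beside medians of 0.06 and 0.09 over all tested probes. The 7 members of the endoplasmic reticulum had medians of -0.09 and -0.20, -0.15 and -0.32, and 0.05 and -0.16, and none passed against control. Their median difference was -0.17 between day 7 and day 4, with 6 of 7 lower. Between day 12 and day 4 it was 0.09, with 4 higher and 3 lower. Of these members HSP90B1, DNAJC1 and DNAJC10 passed between days, as given above. A wider list of the unfolded protein response and folding in the endoplasmic reticulum, with 24 tested genes of 31, had medians from -0.19 to 0.03 against control and none that passed. Of a list of cochaperones and heat shock factors, with 36 tested genes of 40, HSF1 alone was called against control. CRYAB, itself a small heat shock protein under a symbol the pattern does not take, rose by 0.70 on day 4 after 6.7 Gy (SE 0.14, adjusted p = 0.0335).

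HSF1, the main transcription factor of heat shock genes, read 0.18, 0.02, 0.92 and 0.53 in controls and 1.14, 1.72, 1.11 and 1.72 on day 4 after 7.4 Gy. All 4 irradiated arrays lay above every control. The rise was 1.01 (SE 0.24, adjusted p = 0.0488), at the edge of both limits, and 10 of 26 alternative settings kept the call, with changes from 0.43 to 1.20. After 6.7 Gy the difference was 0.67 (adjusted p = 0.176). On day 7 the differences were 0.90 (adjusted p = 0.162) and 1.24 (adjusted p = 0.0733), the latter called in 7 of 25 alternative settings. The activity of HSF1 is known to be set largely on the protein, which these arrays did not measure. BAG2, a cochaperone of HSP70, was the gene of that list called between days and fell by 1.47 from day 4 to day 12 (SE 0.40, adjusted p = 0.0192).

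Several members that differed between day 4 and later days also moved with smooth muscle markers from array to array. A list of 14 smooth muscle markers had 10 tested genes, ACTA2, ACTG2, CALD1, DES, KCNMB1, LMOD1, MYLK, PLN, SYNM and SYNPO2, all of them well above background on some arrays. None was called in any comparison. Their mean level per array ran from 2.20 to 2.88 in controls, 2.52 to 2.75 and 2.52 to 3.46 on day 4, 1.13 to 2.75 and 1.78 to 3.06 on day 7, and 2.08 to 2.16 and 2.06 to 2.21 on day 12. Their median difference was 0.28 and 0.42 on day 4 against control, -0.59 between day 7 and day 4 and -0.65 between day 12 and day 4, with all 10 lower in both of the latter.

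Over the 24 arrays, the level of HSPB8 correlated with the mean of these markers with Pearson's r = 0.93 and Spearman's rho = 0.88 (permutation test over arrays, two-sided, adjusted p = 0.000805 and 0.000958). HSPB6 had r = 0.93 and rho = 0.93, DNAJB5 0.84 and 0.82, and HSPA2 0.83 and 0.85, with adjusted p = 0.000805 for each r and at most 0.00136 for each rho. Without the 2 arrays farthest from the median of the markers (6.7 Gy day 7 replicate 1 and 7.4 Gy day 4 replicate 1), r was 0.89, 0.88, 0.80 and 0.84. As deviations from the group means, r was 0.94, 0.92, 0.79 and 0.78, so the relation was also present among animals of 1 group. No p was computed for these deviations. The permutation moved arrays freely across the 7 groups, so its p also takes in differences between groups. Within the scan days r was 0.94 and 0.92 for HSPB8 and 0.85 and 0.87 for HSPA2. The array with the lowest marker mean, 6.7 Gy day 7 replicate 1 at 1.13, had the lowest HSPB8 (-3.29) and the lowest HSPB6 (-3.15) of all. The mean of the enteric neuron and glia markers was also low there (-1.86). It was highest (-0.22) on 7.4 Gy day 4 replicate 1, which had the highest muscle marker mean (3.46). Relations to markers of other cell types were not computed, so these relations are not shown to be particular to smooth muscle.

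HSPB1, which had no day difference that passed, was also related to the markers, with r = 0.80 (adjusted p = 0.00113) and rho = 0.78 (adjusted p = 0.00172), and r = 0.80 as deviations from the group means. For HSPG2 r was 0.74 (adjusted p = 0.000805) and rho 0.74 (adjusted p = 0.00317), falling to r = 0.56 as deviations from the group means. CCT6A had r = 0.54 (adjusted p = 0.0436) and rho = 0.47 (adjusted p = 0.0967), and without the 2 farthest arrays r was 0.39. Relations of the remaining members that passed were negative. HSPD1 had r = -0.07, and the median over the 58 genes was -0.03, with HSPA8 at r = -0.56 (adjusted p = 0.0348) and rho = -0.44 (adjusted p = 0.124). DNAJC22 (r = -0.57, adjusted p = 0.0346) and DNAJC4 (r = -0.55, adjusted p = 0.0386) were the other members with a negative r that passed. As deviations from the group means r was -0.50 for HSPA8, -0.44 for DNAJC22 and -0.19 for DNAJC4. In all, 4 of 58 genes (6.90%) had r over 0.8 beside 0.969% of all tested probes, and 10 (7 positive, 3 negative) had an adjusted p under 0.05 beside 14.8%. These relations were computed after the levels were seen, with p adjusted over all 28171 tested probes. The part of the muscle markers in the day differences of HSPB8, HSPB6, DNAJB5 and HSPG2, and in the HSPA2 call on day 4 after 7.4 Gy, where all 10 markers had a higher mean than in control, was not tested. HSPA2 itself differed from day 4 by -0.89 on day 7 (adjusted p = 0.0767) and by -1.16 on day 12 (adjusted p = 0.0678), and neither passed. Markers of macrophages (7 tested of 12, median 0.67 and 0.70) and of enteric neurons and glia (8 tested of 12, median 0.51 and 0.58) had positive median differences from control on day 4, and respective medians of -0.78 and -0.69 between day 7 and day 4, and -0.31 and -0.85 between day 12 and day 4. FCGR3 was called higher on day 4 after both doses, and CD14 and VIP after 7.4 Gy. FCGR3 and VIP were called lower on day 7 than on day 4, and CD14 and VIP on day 12. Absorptive enterocyte markers (10 tested of 14) had medians of -0.37 and -0.38 on day 4 against control, with FABP1 called lower after both doses and VIL1 after 6.7 Gy, and -0.08 between day 7 and day 4. Their mean level per array was 4.39 to 4.78 in controls and 3.80 to 4.31 and 3.73 to 4.38 on day 4, below every control. B and plasma cell markers (5 tested of 12) had medians of -1.07 and -0.87 on day 4 against control, with MZB1 called lower after both doses. The part of these cell types in the members' day 4 differences was not tested.

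**Figure D4:**
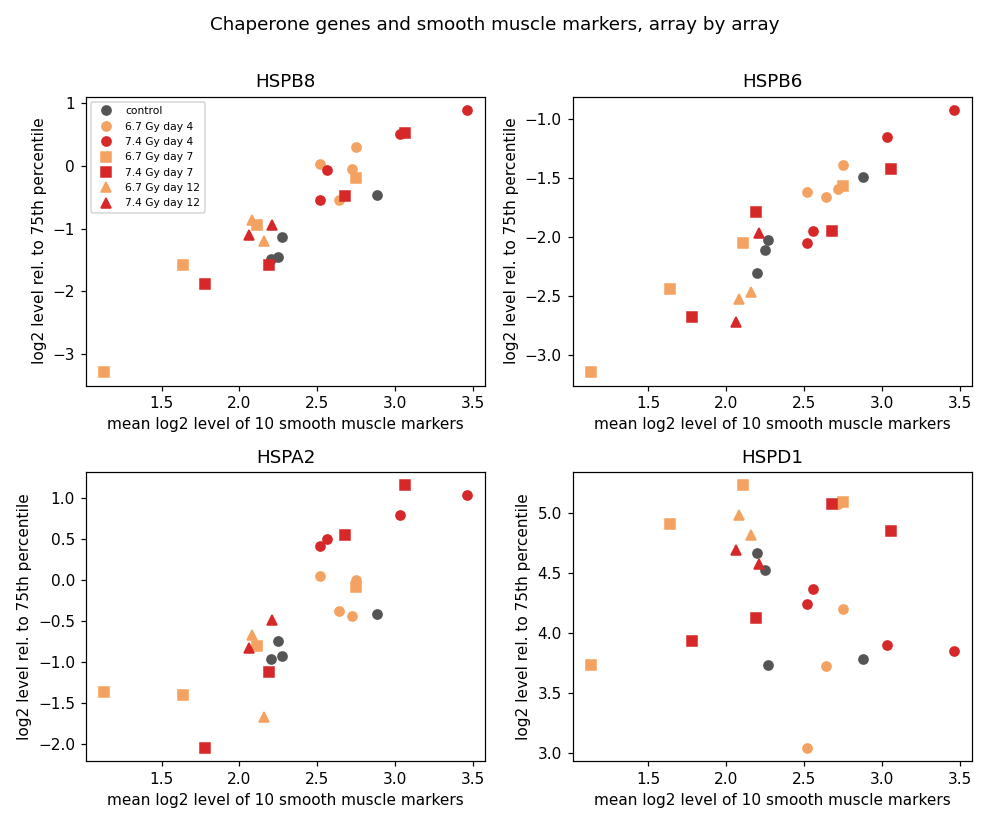
Level of HSPB8, HSPB6, HSPA2 and HSPD1 in each of the 24 arrays (y axis, log2 scale with the array's 75th percentile at 0) against the mean level of 10 smooth muscle markers in the same array (x axis), coloured by group. HSPB8, HSPB6 and HSPA2 rise along the axis with r = 0.93, 0.93 and 0.83, and HSPD1 has no such relation (r = -0.07).

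Several chaperone genes have more than 1 probe, and near-identical gene copies exist for many of them, so probe agreement was examined. Of 25 genes with 2 or more tested probes, all probes had the same sign of change against control for 17, 15, 16, 21, 16 and 13 genes in the 6 comparisons, again in the order 6.7 and 7.4 Gy on days 4, 7 and 12. The median spread between probes of a gene was 0.17 to 0.30 and the widest 1.04, for HSPG2 on day 4 after 7.4 Gy. HSPE1 had 3 probes close to each other on day 7, with changes of 0.34 to 0.37 after 6.7 Gy and 0.31 to 0.41 after 7.4 Gy. All 3 probes of HSPA5 had their highest change on day 12 after 6.7 Gy and their lowest on day 7 after 7.4 Gy, and those of HSPA8 stayed between -0.32 and 0.36. In HSP90AA1 1 of 5 probes lay lower in all 6 groups (-0.17 to -0.64), while the representative probe lay between -0.05 and 0.41.

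**Figure D5:**
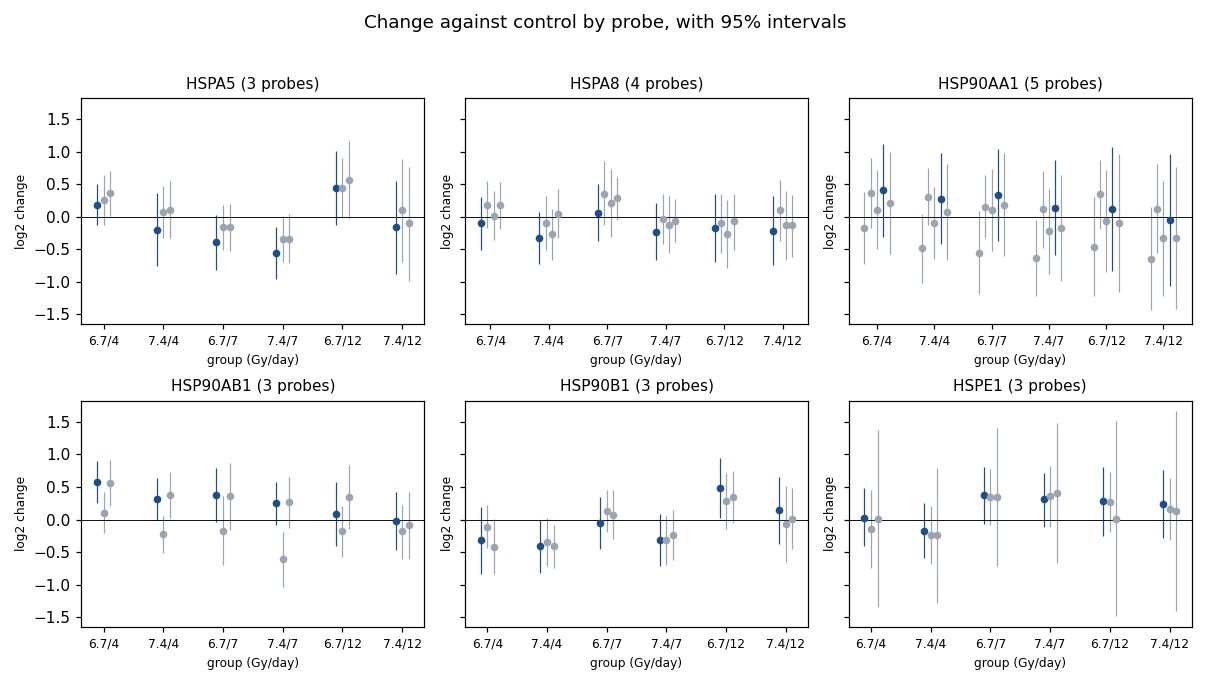
Log2 change against control with its 95% confidence interval (y axis) for every tested probe of HSPA5, HSPA8, HSP90AA1, HSP90AB1, HSP90B1 and HSPE1 in the 6 irradiated groups (x axis), with the representative probe in dark. The probes of HSPE1 agree closely on day 7, while 1 probe of HSP90AA1 lies between -0.17 and -0.64 where the representative one lies between -0.05 and 0.41.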

How the data were processed

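RNA from 24 jejunum samples was labelled with Cy3 and hybridised to 1-colour Agilent Rhesus arrays. Per the file headers, Feature Extraction produced processed signal intensities and flags for each spot. The authors deposited these intensity files together with tables in which GeneSpring had scaled the log2 signal to the 75th percentile and subtracted each probe's median over the arrays. Against the deposited scanner files, 99.98% of the raw-table signals agreed within 0.001 on the log2 scale, and the deposited log2 table was reproduced to 0.000222. That table's centring leaves no absolute level, with column medians from -0.10 to 0.20, so levels here came from the scanner files.

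Spots of a probe were averaged, log2 of the processed signal was taken, and the array's 75th percentile (a signal of 505.4 to 1069) was subtracted. Control spots were left out. No probe value was saturated, and no pair of arrays was identical (correlations 0.888 to 0.986). The number of arrays limits the precision.

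Each irradiated group was compared with control by limma 3.58.1 (R 4.3.3) on the arrays of both groups alone. Contrasts between days (means of both doses), the contrast between doses (mean of the 3 days) and a moderated F test used all 24 arrays. Benjamini-Hochberg adjustment covered all 28171 tested probes. The fits were tested on simulated data. P-values measure the spread between animals. The labels' protocol gives a later last time than the titles and day labels, which were followed (day 12). Replicate numbers did not pair the samples (correlations of same-numbered deviations -0.16 to 0.24, over 0.1 in 3 of 20 pairs, all 3 of them 6.7 Gy day 7 arrays, which share their slide with the control of the same number). Each slide held several groups, so differences within slides are given.

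A gene with several probes is shown by the probe with the highest mean level. Genes were named if called against control, if in a fixed core set of major chaperones, or if having the smallest F test p of their family, and the others as chosen after their values were seen. The members and lists were chosen with earlier results of these data known, so that counts over them are descriptions. Array probe sequences are not used here.

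Alternatives covered background correction (normexp, offset 50, on the median signal and local background), normalization, filters, a common floor at -1.85, the methods' t-test, slide, position, scan day and replicate blocks, and each array left out. The 2 settings chosen after seeing the data were the fit without slides 4 and 5 and the fit on the first scan day alone.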

Additional observations from a re-analysis of the deposited data

Results flagged for a closer look

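Of 165 sets of 4 animals examined (33 named probes in the 5 groups of 4), 9 held 1 animal far from the other 3. Chance flags about 1 set in 20. In CCT2 the 6.7 Gy day 7 replicate 2 read 3.93 and the nearest other animal 4.18. In CCT6A the 7.4 Gy day 4 replicate 4 read 0.94 beside 1.49. In DNAJA1 the 6.7 Gy day 4 replicate 2 read 1.70 beside 2.66. In DNAJB9 the 6.7 Gy day 4 replicate 3 read 1.07 beside 0.33. In HSP90AB1 control replicate 2 read 6.06 beside 6.40, and 7.4 Gy day 7 replicate 3 read 6.43 beside 6.62. In HSPA8 the 7.4 Gy day 4 replicate 4 read 5.67 beside 6.01. In HSPB11 the 6.7 Gy day 4 replicate 4 read -1.60 beside -2.28. In the second HSPD1 probe the 7.4 Gy day 7 replicate 4 read 2.50 beside 2.81. None of these 9 was in HSPA2, DNAJB7 or HSPB8.

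Among irradiated animals the level differed between days, by the test of the difference from 0, for 3 members. Their estimated difference was also at least 2-fold, a size that was not itself tested. All controls were labelled day 4, so a change in the effect of TBI between days was not tested. At any size 15 of 97 member probes passed that test between day 7 and day 4 (beside 16.9% of all tested probes) and 15 between day 12 and day 4 (beside 13.4%), among them DNAJB5, DNAJC4 and HSPG2. HSPB8 was lower on day 7 than on day 4 by a log2 difference of -1.25. DNAJB7 was higher on day 12 than on day 4, by 1.22. HSPA4L was lower on day 12 than on day 4, with -1.11.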

How the results depend on the processing

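Of 290 counts of called members under alternative settings, 228 stayed within 1.5 times the main count and 62 did not. Of 180 changes of called members, 127 kept the call, 53 lost it and 0 reversed. Percentages here are the share of all tested probes called under the same setting. Counts after 6.7 Gy on day 4 (1 in the main analysis, 1.98%) were 0 without the filter on dim probes (0.232%), with the common floor (0.568%), with the methods' t-test after adjustment (0.55%) and with position as a block (0.632%), 2 with trend and robust moderation (2.25%), 2 with the slide as a random block (2.56%), 3 with the slide as a fixed block (3.01%) and 2 with 1 probe per symbol (2.54%). On day 4 after 7.4 Gy (2, 2.60%) they were 1 without the filter (0.222%), 1 with the floor (1.06%), 0 with position as a block (0.0603%), 1 with scan day as a block (2.75%) and 0 without slides 4 and 5 (0.0426%). On day 7 after 7.4 Gy (0, 0.288%) the slide as a random block gave 1 (1.59%). Between day 7 and day 4 (1, 1.88%) normexp (1.05%), no filter (1.2%), a fit on the compared groups alone (1.84%), the fit without slides 4 and 5 (2.46%) and the first scan day alone (1.79%) each gave 0. Between day 12 and day 4 (2, 3.43%) normexp (1.78%), no filter (1.86%), scan day as a block (3.47%) and the fit without slides 4 and 5 (1.44%) each gave 1, probes above background on all 24 arrays (2.51%) and the floor (1.51%) gave 0, and the slide as a fixed block gave 5 (4.79%). The F test (7, 9.96%) gave 3 without the filter (3.37%), 12 with the slide as a random block (15.5%) and 0 without slides 4 and 5 (0.667%). The floor lies above nearly all values of DNAJB7 and HSPA4L, so their loss there is by construction. The cause of the other shifts was not tested.

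With the replicate block the day 4 counts were 0 (6.7 Gy, 0.33%) and 1 (7.4 Gy, 0.458%), with 1 between day 12 and day 4 (2.28%), and otherwise stayed within 1.5 times. The best matching control had the same number for 7 of 20 arrays, among them all 4 of the 6.7 Gy day 7 group, whose correlations with that control were 0.10 to 0.24. In that comparison the same number also means the same slide, and the block gave 0 called members as before, beside 0.00355% of all tested probes in place of 0.0639%.

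When each array was left out in turn, the count ran from 0 to 2 on day 4 after 6.7 Gy (0 without control replicate 1, 2 or 3), from 2 to 5 after 7.4 Gy (5 without 7.4 Gy day 4 replicate 4), from 0 to 1 on day 12 after 7.4 Gy, from 0 to 2 between day 7 and day 4, from 0 to 4 between day 12 and day 4 and from 4 to 10 in the F test. By the methods' t-test at p under 0.05 without adjustment and 2-fold, 3, 4, 0, 1, 0 and 0 member probes differed from control (each day with 6.7 Gy first, from day 4 on), beside 3.20%, 3.89%, 1.26%, 2.33%, 1.03% and 1.29% of all tested probes. At the methods' threshold, which adds the Benjamini-Hochberg adjustment, 2 were left, both on day 4 after 7.4 Gy. Dim probes such as DNAJB7 and HSPA4L are limited by signal over background.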
